A study of Mus musculus with 179 samples.

Results

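The genes described here are 9 core members of the transforming growth factor beta (TGF-beta) pathway in mouse pancreatic organoid cells: the ligands Tgfb1, Tgfb2 and Tgfb3, the receptors Tgfbr1 and Tgfbr2, the receptor-regulated SMADs Smad2 and Smad3, the common SMAD Smad4 and the inhibitory SMAD Smad7. They were taken by name from the table of transcript counts, where all 9 were present among 32100 gene identifiers. Their levels were compared between epithelial cells and a few fibroblast-rich cells of the same organoid cultures.

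The cells came from the exocrine pancreas of wild type C57BL6 mice, and the labels call every cell an acinar cell. Acinar cells were freed from the tissue by digestion, purified on a density gradient and kept for 9 days in Matrigel, a basement membrane gel, where they grew as 3D organoids. RNA of single cells was read with Smart-seq3, a plate method that tags molecules with unique molecular identifiers (UMIs), in a protocol that also profiles the epigenome of the same cell; the epigenome was not analysed here. All cells form 1 group, no animal or culture is named for any of them, and cells are not replicates, so the values are described without tests, and every interval covers counting error only.

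TGF-beta ligands are secreted in a latent form and held in the extracellular matrix by latent TGF-beta binding proteins until integrins, proteases or other factors release them. The active ligand brings the type II receptor TGFBR2 and the type I receptor TGFBR1 together, TGFBR1 phosphorylates SMAD2 and SMAD3, and these enter the nucleus with SMAD4. SMAD7 is induced by the signal and blocks the receptor, which closes a feedback loop. In the pancreas the pathway is known for restraining epithelial growth, for its part in acinar-to-ductal metaplasia, and for the activation of fibroblasts that lay down matrix.

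Cells were split by the summed level of 10 fibroblast genes (collagens, Pdgfra, Pdgfrb, Dcn, Lum, Thy1, Postn and Acta2), none of which is among the 9 pathway genes. Levels are CPM, the UMIs of a gene scaled to a common total of UMIs per cell. The 6 cells with at least 1000 CPM, Acinar5, Acinar6, Acinar44, Acinar105, Acinar182 and Acinar188, are called fibroblast-rich and held 4100 to 12627 CPM; the nearest cells below, Acinar108, Acinar187 and Acinar183, held 273.7, 171.8 and 91.8 CPM. The remaining 96.6% of the cells are called epithelial: a list of 10 epithelial genes, keratins and junction genes among them, stood at 5216 to 39329 CPM in them with a median of 16332, while a list of 10 digestive enzyme genes had a median of only 121.1 CPM there. The fibroblast-rich cells other than Acinar188 held 581 to 1039 CPM of the epithelial list. Acinar188 held 7245 CPM, with Krt7 at 2658 and Krt19 at 970.1 CPM, so this cell carried RNA of both lists, and values without it are given where it matters. Depth was 3258 to 329522 UMIs in an epithelial cell (26757278 in all) and 133748 to 228062 in a fibroblast-rich cell (1068138 in all). In the 6 fibroblast-rich cells the immune list reached at most 13.2 CPM with a median of 6.87, against an epithelial median of 0 CPM. Its highest epithelial level was 259.3 CPM. Of its 8 genes, 6 were at 0 in the 6 cells, Ptprc, Cd68 and Csf1r among them. Lyz2 was at 3.74 against 0.112 CPM and Fcer1g at 3.74 against 0.673 CPM, on 4 fibroblast-rich UMIs each. The endothelial list stood at 5.61 to 118.95 CPM with a median of 34.7, against a median of 17.98 CPM in epithelial cells. Of its genes, Tie1 was at 0 in the 6 cells, Kdr had 7 UMIs in 2 of them and none in epithelial cells, Plvap was at 11.2 against 1.94 CPM, and Pecam1 at 16.9 against 13.5 CPM. The list of pericyte and smooth muscle genes stood at 289.4 to 1278 CPM, against a median of 0 and a highest of 2505 CPM in epithelial cells. Rgs5, Myh11 and Cnn1 were at 0 in the 6 cells. Cspg4 was present in all 6, at 475.6 against 0.374 CPM, and Tagln was at 156.3 against 1.53 CPM. The mesothelial list stood at 7.48 to 258.0 CPM, against an epithelial median of 250.1 CPM. Wt1 had 17 UMIs in 3 of the 6 cells and none in epithelial cells. Msln was at 49.6 against 574.8 CPM, and the other 3 genes of that list were at 0 in the 6 cells. The Schwann list stood at 0 to 97.2 CPM, against an epithelial median of 3.93 CPM. The part of the genes of these lists in the results was not tested.

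The promoters shown are those of the genes with the largest difference in each direction, Tgfb1 (higher in fibroblast-rich cells) and Smad3 (higher in epithelial cells). Each is the 250 bases before the transcription start in RefSeq's annotation of GRCm38.p6, read 5′ to 3′ on the strand of the gene. Tgfb1 lies on chromosome 7 from 25687002 to 25705077 on the plus strand (8 exon blocks), and the window shown is chr7:25686752-25687001. Smad3 lies on chromosome 9 from 63646767 to 63757994 on the minus strand (13 exon blocks), and its window is chr9:63757995-63758244. Capitals mark GC boxes.
Tgfb1: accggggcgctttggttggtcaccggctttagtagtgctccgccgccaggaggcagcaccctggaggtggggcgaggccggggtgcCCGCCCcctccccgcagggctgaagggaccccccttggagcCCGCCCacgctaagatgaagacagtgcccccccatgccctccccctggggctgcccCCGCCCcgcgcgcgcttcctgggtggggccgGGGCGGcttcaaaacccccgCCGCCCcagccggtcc
Smad3: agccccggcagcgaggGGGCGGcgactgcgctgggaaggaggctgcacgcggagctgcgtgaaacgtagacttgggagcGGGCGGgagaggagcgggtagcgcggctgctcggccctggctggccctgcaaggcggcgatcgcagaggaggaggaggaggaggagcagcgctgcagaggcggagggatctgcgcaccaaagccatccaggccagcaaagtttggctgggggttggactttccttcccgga

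Both windows are rich in G and C (75.2% for Tgfb1, 69.2% for Smad3). On either strand, the Tgfb1 window held 5 matches to the GC box GGGCGG, the nearest of them 16 bases before the start, and the Smad3 window held 2, the farther 234 bases before it. No match overlapped another. Of 32851 promoter windows of this length, 32.7% held a GC box. The AP-1 motif TGANTCA (in 6.75% of all windows), the SMAD repeat CAGACAG (6.27%), the SMAD palindrome GTCTAGAC (0.167%) and the TEAD site GGAATG (12.6%) had no match in either window, which says only that these letters are not there. Promoters of 5 of the 9 genes were matched by symbol; those of Tgfb3, Smad2, Smad4 and Smad7 were not used here.

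Of the 9 genes, 6 were at least 2-fold higher in the fibroblast-rich cells (Tgfb1, Tgfb2, Tgfb3, Tgfbr1, Tgfbr2 and Smad7), and 1, Smad3, was at least 2-fold lower. Smad2 and Smad4 lay between. Over all 14997 genes with at least 50 UMIs, 14.1% were at least 2-fold higher by the same measure and 16.8% at least 2-fold lower. The median log2 fold of the 9 genes was 1.46, against -0.09 over all genes tested. With Acinar182 left out, 4 genes were at least 2-fold higher and none was at least 2-fold lower, because Tgfb2, Tgfbr1 and Smad3 then missed the threshold. Without Acinar188, the cell with RNA of both lists, 5 genes were at least 2-fold higher and 1 at least 2-fold lower, because Tgfbr1 was then at 1.94.

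**Figure D1:**
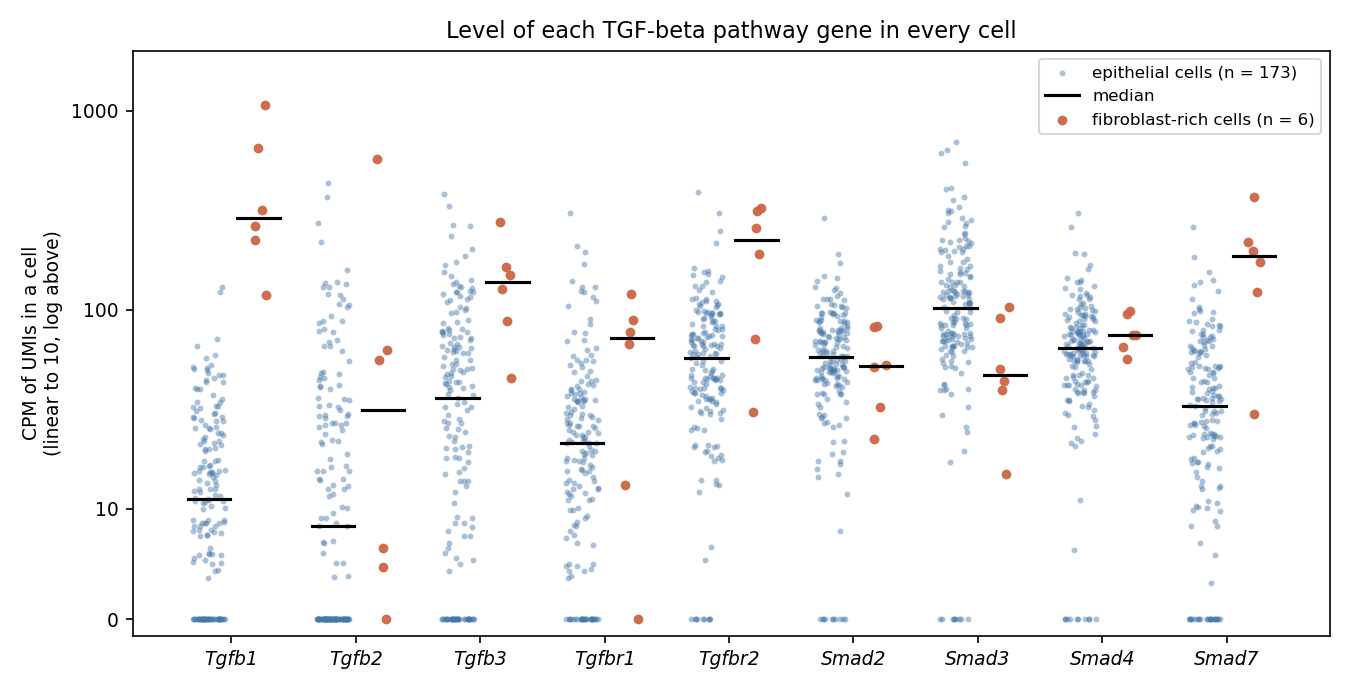
CPM of UMIs of each of the 9 genes in every cell (vertical axis, linear to 10 and logarithmic above), with the epithelial cells in blue, the 6 fibroblast-rich cells in orange and a black line at each median. Tgfb1 shows the widest gap between the classes (medians 11.2 and 289.6 CPM), while the points of Smad2 and Smad4 lie at like heights in both.

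In the gene by gene values that follow, the level of a class is its pooled CPM, all UMIs of the gene over all UMIs of the class, and a fold is the ratio of these pooled levels with its exact 95% counting interval. The lowest, median and highest epithelial values are given over the 89.6% of epithelial cells with at least 40000 UMIs, called deep, since in the shallowest cell a single UMI equals 306.9 CPM.

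The ligand Tgfb1, the isoform best known for immune restraint and fibrosis, separated the classes most. Its level was 118.4 CPM in Acinar5, 316.2 in Acinar6, 1064 in Acinar44, 262.9 in Acinar105, 650.5 in Acinar182 and 224.3 in Acinar188, against a lowest of 0, a median of 12.2 and a highest of 71.1 CPM in the deep epithelial cells. All 6 fibroblast-rich cells thus lay above every deep epithelial cell; among the shallower ones, 2 were above Acinar5, the higher at 129.9 CPM from 1 UMI. Pooled Tgfb1 was 441.9 CPM in fibroblast-rich (402.9 to 483.6) and 17.2 CPM in epithelial cells (15.7 to 18.9), a 25.6-fold difference (22.5 to 29.2). Acinar44 held 48.1% of the fibroblast-rich UMIs, and without it the fold was 16.6. Without Acinar188 or any other single cell it stayed between 16.6 and 30.7.

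Tgfb2 (chromosome 1, 186622792 to 186705989, minus strand), the ligand known for roles in development, had high values in single cells of both classes. It was at 0 in Acinar5, 6.45 CPM in Acinar6, 4.69 in Acinar44, 62.6 in Acinar105, 568.2 in Acinar182 and 56.1 in Acinar188. The deep epithelial cells ran from 0 through a median of 10.1 to a highest of 430.9 CPM, the last from 64 UMIs in Acinar189. The classes overlapped almost completely. The pooled fold was 3.00 (2.41 to 3.71; 91.7 against 30.5 CPM), but Acinar182 alone held 77.6% of the 98 fibroblast-rich UMIs, and without this cell the fold was 0.77. Among the cells with title numbers up to 96, Acinar5, Acinar6 and Acinar44 among them, it was 0.163. Acinar105, Acinar182 and Acinar188 lay above the upper quartile of all epithelial cells (32.7 CPM), and the other 3 cells lay below the epithelial median (8.44 CPM).

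Tgfb3 (chromosome 12, 86056745 to 86079041, minus strand), the remaining ligand isoform, stood at 127.2 CPM in Acinar5, 45.2 in Acinar6, 164.1 in Acinar44, 87.6 in Acinar105, 149.5 in Acinar182 and 274.8 in Acinar188. In the deep epithelial cells it ran from 0 through a median of 37.5 to a highest of 380.6 CPM, in Acinar129. Every fibroblast-rich cell was above the median of all epithelial cells (36.1 CPM), yet 68 deep epithelial cells lay above the lowest of the 6, so the ranges overlapped. The pooled fold was 2.75 (2.31 to 3.25; 144.2 against 52.4 CPM), and 2.25 without Acinar188, its highest cell. Only Tgfb1 and Tgfb3, 2 of the 9 genes, had all 6 fibroblast-rich cells above the epithelial median, a pattern found in 9.23% of all genes tested. None of the 9 had all 6 below it, against 9.82% of all genes.

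The make-up of the ligand transcripts differed accordingly. In the epithelial cells, Tgfb3 gave 52.3% (50.4 to 54.2) of 2680 ligand UMIs, Tgfb2 30.5% (28.7 to 32.3) and Tgfb1 17.2% (15.8 to 18.7). In the fibroblast-rich cells pooled, Tgfb1 gave 65.2% (61.6 to 68.7) of 724 ligand UMIs, Tgfb3 21.3% (18.3 to 24.4) and Tgfb2 13.5% (11.1 to 16.2). Acinar44 alone held 263 of these 724 UMIs and 227 of the 472 UMIs of Tgfb1, so the pooled shares lean on this cell. The share of Tgfb1 was 40.4% in Acinar188 and 47.5% in Acinar182, the lowest values, and 86.3% in Acinar44, the highest. In all 6 cells the share of Tgfb1 was above its pooled epithelial share, but Tgfb1 did not lead in every cell. Tgfb3 had the largest share in Acinar5 (51.8% against 48.2% for Tgfb1) and in Acinar188 (49.5% against 40.4%), as in the pooled epithelial cells. Tgfb1 had the largest share in Acinar6, Acinar44, Acinar105 and Acinar182.

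**Figure D2:**
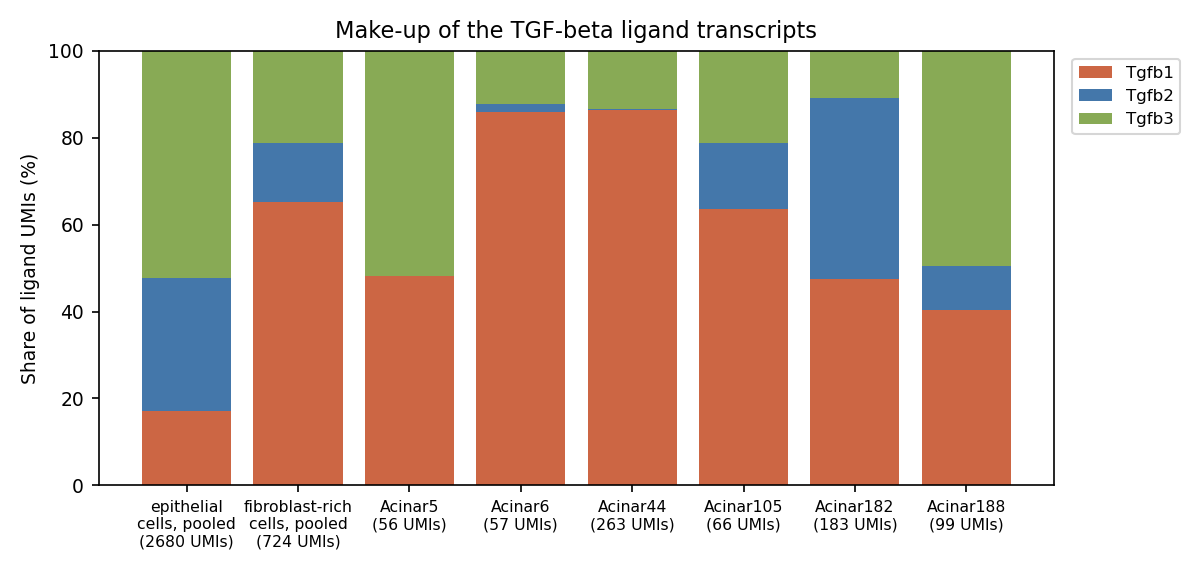
Share of Tgfb1, Tgfb2 and Tgfb3 in the ligand UMIs (vertical axis, percent) of the epithelial cells pooled, the 6 fibroblast-rich cells pooled and each fibroblast-rich cell, with the number of UMIs under each bar. Tgfb3 takes 52.3% of the epithelial bar, and Tgfb1 takes 65.2% of the pooled fibroblast-rich bar and between 40.4% and 86.3% in the single cells.

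Of the receptors, Tgfbr2 (chromosome 9, 116084293 to 116175360, minus strand), the type II receptor that binds ligand first, was at 30.7 CPM in Acinar5, 70.97 in Acinar6, 257.9 in Acinar44, 325.6 in Acinar105, 314.0 in Acinar182 and 190.7 in Acinar188. In the deep epithelial cells it ran from 5.34 through a median of 58.6 to a highest of 216.1 CPM, so every one of these cells held it. Acinar44, Acinar105 and Acinar182 lay above all deep epithelial cells, and Acinar5 lay below the epithelial median. The pooled fold was 3.15 (2.71 to 3.65; 188.2 against 59.7 CPM), and 2.75 to 3.87 when each cell was left out.

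Tgfbr1 (chromosome 4, 47353222 to 47414931, plus strand), the type I receptor kinase that phosphorylates the SMADs, sat on the threshold. It was at 13.2 CPM in Acinar5, 77.4 in Acinar6, 89.1 in Acinar44, 0 in Acinar105, 119.6 in Acinar182 and 67.3 in Acinar188, against 0, 21.8 and 208.0 CPM for the lowest, median and highest deep epithelial cell. Of the 6, 4 lay above the upper quartile of all epithelial cells (37.9 CPM), and the ranges overlapped. The pooled fold was 2.001 (1.52 to 2.59; 58.04 against 29.002 CPM) from 62 fibroblast-rich UMIs. It was 1.70 without Acinar182, 1.94 without Acinar188 and 1.87 when the median of 4537 genes was put at a ratio of 1. A call at 2-fold thus depended on the setting.

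The receptor-regulated SMADs differed from each other. Smad3 was the gene of the 9 that was lower in the fibroblast-rich cells, at 39.5 CPM in Acinar5, 90.3 in Acinar6, 103.1 in Acinar44, 43.8 in Acinar105, 14.95 in Acinar182 and 50.5 in Acinar188. The deep epithelial cells ran from 0 in 1 cell through a median of 107.7 to a highest of 697.4 CPM, the last from 57 UMIs in Acinar16. All 6 cells lay below the median of the deep cells, and within their range; against the median of all epithelial cells (101.4 CPM), 5 lay below and Acinar44 above. Pooled Smad3 was 129.8 CPM in epithelial (125.5 to 134.2) and 58.98 CPM in fibroblast-rich cells (45.3 to 75.5), a 2.20-fold lower level in the latter (1.72 to 2.87). Without Acinar182 it was 1.99-fold lower, and among title numbers up to 96 the ratio of fibroblast-rich to epithelial cells was 0.585.

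Smad2 (chromosome 18, 76241580 to 76310963, plus strand), which carries the same signal as Smad3, was at 52.6 CPM in Acinar5, 32.3 in Acinar6, 51.6 in Acinar44, 81.4 in Acinar105, 82.2 in Acinar182 and 22.4 in Acinar188. In the deep epithelial cells it ran from 7.95 through a median of 59.2 to a highest of 171.3 CPM. The fibroblast-rich cells lay on both sides of the median, and the ratio of pooled levels was 0.855, with an interval (0.643 to 1.12) that includes 1. Smad3 made up 67.9% (66.6 to 69.2) of the UMIs of the pair in epithelial cells and 52.9% (43.6 to 62.2) in fibroblast-rich cells. The share ran from 15.4% in Acinar182, 35% in Acinar105 and 42.9% in Acinar5 to 66.7% in Acinar44, 69.2% in Acinar188 and 73.7% in Acinar6. Each rests on only 13 to 33 UMIs.

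Smad4 (chromosome 18, 73639009 to 73703780, minus strand), the shared partner of all receptor-regulated SMADs and a tumour suppressor of the pancreas, was at like levels in both classes. It was at 74.5 CPM in Acinar5, 64.5 in Acinar6, 98.5 in Acinar44, 56.3 in Acinar105, 74.8 in Acinar182 and 95.3 in Acinar188, inside the epithelial range of 6.29 to 191.5 CPM around a median of 64.9. The ratio of pooled levels was 1.15 (0.913 to 1.43), and it stayed between 1.08 and 1.21 when each cell was left out.

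Smad7 (chromosome 18, 75367529 to 75395935, plus strand), the inhibitory SMAD, was at 197.3 CPM in Acinar5, 174.2 in Acinar6, 121.9 in Acinar44, 369.4 in Acinar105, 29.9 in Acinar182 and 218.7 in Acinar188. The deep epithelial cells ran from 0 through a median of 35.4 to a highest of 183.6 CPM. Of the 6 cells, 5 lay above the 95th percentile of all epithelial cells (101.8 CPM), while Acinar182 lay below the epithelial median. The pooled fold was 4.53 (3.87 to 5.27; 187.2 against 41.4 CPM) and 3.75 without Acinar105. Acinar182 thus had the highest Tgfb2 and Tgfbr1 and the lowest Smad3 and Smad7 of the 6 cells.

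**Figure D3:**
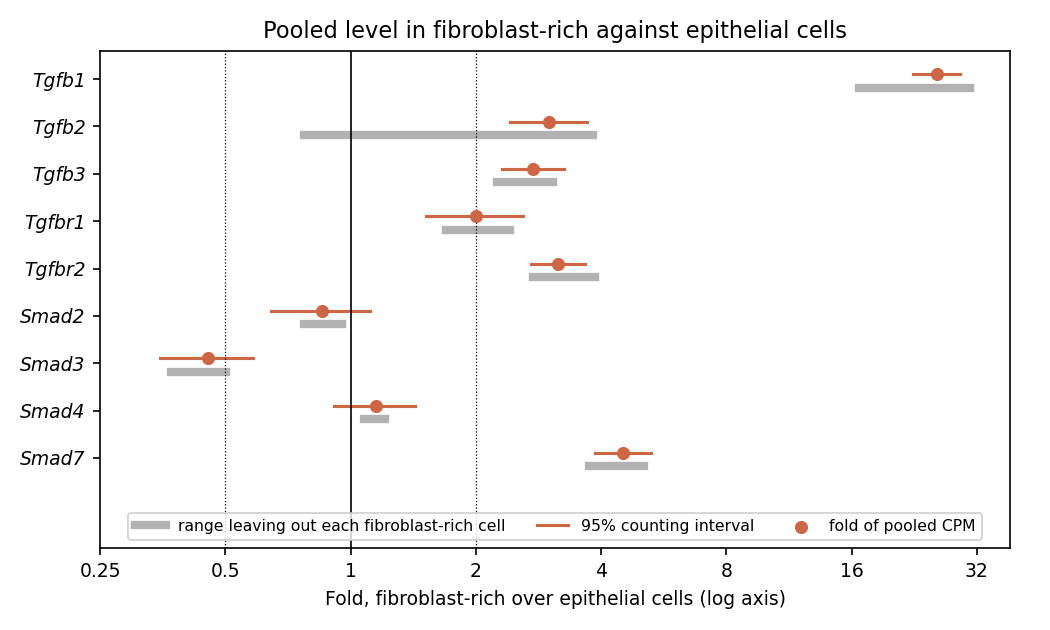
Fold of pooled CPM, fibroblast-rich over epithelial cells, for each gene (horizontal axis, logarithmic; dotted lines at 0.5 and 2), with the 95% counting interval in orange and the range over leaving out each fibroblast-rich cell in grey. The grey bar of Tgfb2 runs from 0.77 to 3.82 and crosses 1, whereas that of Tgfb1 runs from 16.6 to 30.7.

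Within the epithelial cells, the order of the 9 genes was set by CPM of UMIs per kilobase of exon. It ran Smad3 (23.4), Smad4 (18.4), Tgfb3 (15.5), Smad7 (9.15), Tgfbr2 (7.29), Smad2 (6.98), Tgfb2 (5.27), Tgfbr1 (4.44) and Tgfb1 (3.42). Without division by length, Tgfb3 stood behind Smad2 and Tgfbr2 and Smad7 behind all 3, and the counting intervals of the neighbours Smad2 and Tgfbr2, and of Tgfb2 and Tgfbr1, overlapped; the middle quartiles over cells overlapped for every pair of neighbours. Across 11348 genes, exon length had a rank correlation of 0.02 with UMIs and 0.19 with reads per UMI. UMI counts thus hardly followed exon length, so the order per kilobase favours genes with less exon sequence over the order by CPM. In the fibroblast-rich cells the order by CPM per kilobase opened with Tgfb1 (87.6), Tgfb3 (42.6), Smad7 (41.4) and Tgfbr2 (23.0) and closed with Smad2 (5.97). By CPM of UMIs in these 6 cells, the counting intervals of neighbours overlapped except those of Tgfb1 and Tgfbr2 and of Tgfb3 and Tgfb2. Tgfb1 was thus the lowest of the 9 in epithelial cells and the highest in fibroblast-rich cells on this scale.

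Detection was compared after each deep cell was thinned to 40000 UMIs, so that 1 UMI equals 25 CPM; this left out 18 epithelial cells and no fibroblast-rich cell. Of the 9 genes, 7 had a UMI in at least 50% of the thinned epithelial cells, against 51.7% of all genes tested. The share was 95.5% for Smad3 (90.9 to 98.2), 90.3% for Tgfbr2 (84.5 to 94.5), 89.03% for Smad4 and 85.2% for Smad2. It was 74.2% for Smad7, 69.03% for Tgfb3 (61.1 to 76.2) and 58.1% for Tgfbr1 (49.9 to 65.9). The genes under 50% were Tgfb2 (45.2%, 37.2 to 53.3) and Tgfb1 (44.5%, 36.5 to 52.7), both ligands. These shares rest on 1 random draw. The exact expected shares were 91.5% for Smad4, 89.5% for Smad2 and 86.8% for Tgfbr2. With another draw they were 87.7%, 93.5% and 88.4%, and Smad7 was at 67.7%. The order of Tgfbr2, Smad4 and Smad2 thus depended on the draw, while the same 7 genes reached 50% in both draws. Without thinning, over all epithelial cells, Tgfb1 was seen in 73.99% and Tgfb2 in 54.9%. These 2 ligands, alike in their thinned share, differed in that 31 of the deep cells had no Tgfb1 UMI at full depth and 62 had no Tgfb2 UMI. Most cells held parts of the whole chain: 40% of the thinned cells had UMIs of 2 ligand genes, 16.1% of all 3, 30.3% of 1 and 13.5% of none. UMIs of both receptors were seen in 52.9% of the cells and of neither in 4.52%, and Smad2, Smad3 and Smad4 together in 73.5%. A ligand, both receptors, Smad4 and Smad2 or Smad3 were found together in 64 cells (41.3%, 33.5 to 49.5), and all 9 genes in 12. A missing UMI at this depth does not show that a cell lacks the transcript.

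Of the 9 genes, Tgfb2 had the highest spread over epithelial cells relative to its mean. For counts thinned to 40000 UMIs, the variance over the mean was 4.95 for Tgfb2, 3.48 for Smad3, 2.68 for Tgfb3 and 2.45 for Tgfbr1, against medians of 1.42, 1.83, 1.51 and 1.46 over the 201 genes of most like mean. These values exceeded those of 92.5%, 83.6%, 81.6% and 87.1% of such genes. For Tgfbr2, Smad2, Smad4, Smad7 and Tgfb1 the ratio was 1.25 to 1.44, below the median of like genes. The ratio grows with the mean, which was highest for Smad3, and against genes of like mean Tgfbr1 stood above Smad3. The 17 epithelial cells with the highest Tgfb2 held 55.8% of its UMIs, and the share held by the 17 highest cells was 39.02% for Tgfb3, 35.3% for Tgfbr1, 30.3% for Smad3 and 22.6% for Smad2. Over 8 blocks of consecutive title numbers, which the labels do not tie to plates or cultures, pooled Tgfb3 ranged most, from 28.8 to 80.2 CPM, and Tgfb1 ranged from 10.3 to 23.8 CPM. Smad3 ranged from 97.8 to 145.2 CPM. Acinar52, the epithelial cell with the most digestive enzyme RNA, had no UMI of Tgfb1, Tgfb2, Tgfb3, Tgfbr1 or Smad7, 9 UMIs of Tgfbr2 and 15 of Smad3.

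Correlations among the 9 genes from cell to cell were weak, in counts that are sparse. Over the thinned epithelial cells, which share 1 depth but not necessarily 1 culture, Spearman's rho of the 36 gene pairs ran from -0.16 (Tgfb1 and Smad3) to 0.22 (Tgfb2 and Tgfb3), with a median of 0.07. Among 4479 genes with a mean of at least 2 thinned UMIs, 5 of the 9 genes were abundant enough to be searched for like patterns, and 3 had a gene at a rho of at least 0.4. For Smad3 these were led by Ddit4 (0.50), an inhibitor of mTORC1 induced by stress, Cdkn1a (0.47), the p21 cell cycle inhibitor, and Plec (0.45), a cytoskeletal linker. For Tgfb3 they were St6gal1 (0.48), a sialyltransferase, Igfbp7 (0.43), a secreted binding protein, and Cnn3 (0.41), an actin-binding calponin. Smad4 had only Epb41l2 (0.40), a membrane skeleton protein. No gene reached 0.4 for Tgfbr2 or Smad2. How many of the 4479 genes have a partner at this rho is not given, so the count of 3 is a description only.

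Against the summed counts of 13 of 14 listed TGF-beta responsive genes, leaving out Ccn2, which YAP also controls, rho was 0.37 for Tgfb2, 0.36 for Smad3, 0.28 for Smad7 and 0.27 for Tgfb3, and 0.10 for Tgfb1. This sum is weighted to its most abundant genes. With Cdkn1a also left out, a choice made after its value was seen, rho was 0.45 for Tgfb3, 0.42 for Tgfb2, 0.27 for Smad7 and 0.23 for Smad3; with Pmepa1 left out as well, it was 0.37, 0.34, 0.22 and 0.26. The value of Smad3 was thus lower and that of Tgfb3 higher without Cdkn1a, the gene among the most like Smad3. Against YAP target genes rho was 0.34 for Tgfb3 and 0.31 for Tgfb2, and against G2/M genes it was -0.28 for Smad3.

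**Figure D4:**
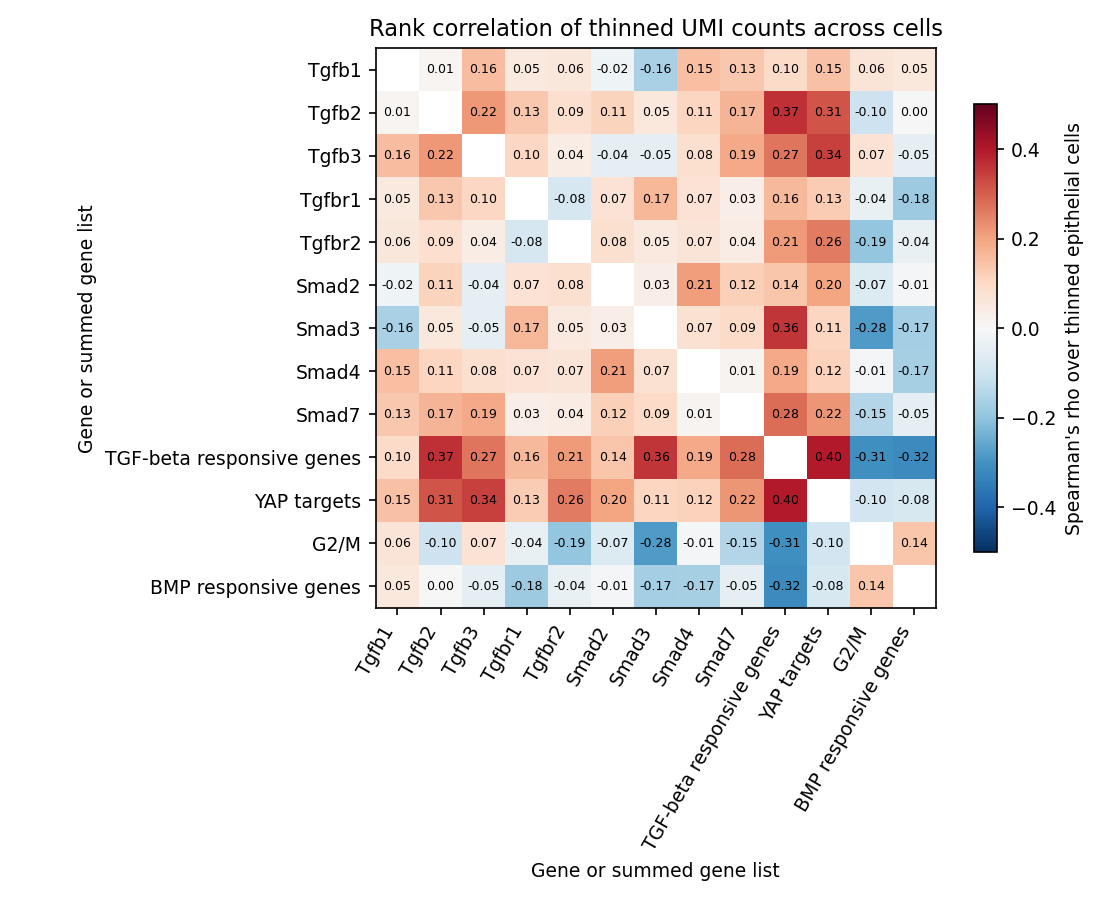
Spearman's rho over the epithelial cells thinned to 40000 UMIs, for all pairs of the 9 genes and the summed counts of 4 gene lists (both axes), with negative values in blue and positive values in red. The block of the 9 genes is pale, between -0.16 and 0.22, and values above 0.3 lie in the columns of the TGF-beta responsive and YAP lists.

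The rest of the pathway was described with 69 further genes in 7 lists, of which 58 had at least 50 UMIs. Of these 58, 30 were at least 2-fold higher in the fibroblast-rich cells, 7 at least 2-fold lower and 21 neither, with a median log2 fold of 1.21. The shares over all genes tested were 14.1% higher and 16.8% lower, so the share of lower genes was below that background; the same shares apply to the list counts that follow, most of which rest on few genes. Of the 30 higher genes, 7 (Eng, Gdf11, Grem1, Lox, Lrrc32, Snai1 and Tgfbi) had under 50 epithelial UMIs and passed the filter only through the cells where they were high, so the counts and medians over tested genes are a description and support nothing further. Over the 51 genes with at least 50 epithelial UMIs, 23 were higher and 7 lower, with a median log2 fold of 0.83, against 11.8% and 17.3% of all genes held to that minimum, which was added after seeing the data. All 9 core genes passed it. Leaving out each fibroblast-rich cell gave 29 to 33 higher and 5 to 7 lower.

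Among 11 genes of latency and activation, 7 were higher, 2 lower and 2 neither (median log2 fold 1.32, and 1.30 without Lrrc32). The largest fold was that of Lrrc32, which codes for GARP, a cell surface anchor of latent TGF-beta, with 6 UMIs in epithelial cells and 229.4 CPM in fibroblast-rich cells, a 1023-fold difference (463 to 2815), present in all 6. Ltbp2, a latent TGF-beta binding protein family member, was 247-fold higher (201 to 307), at 0 in Acinar105 and up to 2407 CPM in Acinar6. Ltbp3 was 2.50-fold and Itgb1, the integrin beta 1 chain, 2.44-fold higher. Ltbp1 was 2.69-fold higher, and 1.94-fold without Acinar44. Itgb6, whose integrin activates latent TGF-beta on epithelia, was the other way round, at 86.3 CPM in epithelial cells and 3 UMIs in the fibroblast-rich ones, 30.7-fold lower (10.5 to 149.2). Nrros, another anchor of latent TGF-beta, had 5 fibroblast-rich UMIs and was 2.38-fold lower (1.008 to 7.38); without Acinar5 the ratio of fibroblast-rich to epithelial cells was 0.534, which is under 2-fold.

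Among 8 co-receptors and other receptors of the family, 3 were higher, 2 lower and 3 neither (median log2 fold 0.54, and 0.24 without Eng). Eng, the co-receptor endoglin, was 253-fold higher (171.4 to 387.9), at 74.5 CPM or more in each of the 6 cells and seen in 9.83% of the epithelial cells. Of the endothelial markers in the same 6 cells, Kdr and Plvap were above their epithelial levels and Tie1 was at 0, as given above; their part in this value was not tested. Acvr1 and Bmpr2, a type I and a type II receptor, were 3.62-fold and 2.49-fold higher, and Bmpr1a was at a ratio of 1.78. Acvr2b, an activin receptor, had 224 epithelial UMIs and none in the fibroblast-rich cells. With the latter put at 3 counts over the group it was 2.98-fold lower, and the counting interval starts at 2.40-fold lower. Acvr1b was 2.18-fold lower on 7 UMIs, and its ratio of fibroblast-rich to epithelial cells was 0.584 without Acinar5 and 0.236 without Acinar188.

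Among 9 genes listed as other ligands of the family, 4 were higher, 1 lower and 4 neither (median log2 fold 0.66, and 0.57 without Gdf11). The 4 higher genes include Bmp1, which despite its name codes for a protease and not a ligand. Inhba, the activin A subunit, was 20.03-fold higher (18.4 to 21.8; 884.7 against 44.2 CPM), at 207.5 to 1626 CPM in the 6 cells. Its highest epithelial cell held 1338 CPM, so the ranges overlapped. Gdf11 was 28.6-fold higher (16.7 to 49.35), and Bmp1, a protease that processes collagens and matrix proteins, 12.3-fold higher (10.97 to 13.7). Bmp6 was 3.47-fold lower (1.47 to 10.7). Gdf15, a stress-induced ligand, was at a ratio of 1.24, and at 0.50 without Acinar44.

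Of 3 other SMADs, 1 was higher, 0 lower and 2 neither (median log2 fold 0.80). Smad5, which acts for BMP receptors, was 2.47-fold higher (1.94 to 3.12), while Smad1 was at a ratio of 0.779 and Smad6 at 1.74. Among 13 inhibitors and regulators, 5 were higher, 1 lower and 7 neither (median log2 fold 0.71, and 0.61 without Grem1). Grem1, a secreted BMP antagonist, had 2 epithelial UMIs and a level of 166.6 CPM in the fibroblast-rich cells, a ratio of 2229 (608 to 18552), but was seen only in Acinar5 (162.2 CPM) and Acinar182 (1054 CPM). With the epithelial cells put at 3 counts its ratio was 1486, and 353.2 without Acinar182. Fstl3, an activin antagonist, was 9.39-fold higher (5.40 to 15.8) from 21 UMIs. Tgif1, a nuclear repressor of SMAD-driven transcription, was 3.43-fold lower (2.40 to 5.10), with all 6 cells at 52.3 CPM or less against an epithelial median of 82.8. Smurf2, a ubiquitin ligase that acts with Smad7 on the receptor, was at a ratio of 1.64, and Trim33 at 0.681.

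Among 13 TGF-beta responsive genes, 10 were higher, 1 lower and 2 neither (median log2 fold 2.75, and 1.78 with 7 of 10 higher without Lox, Snai1 and Tgfbi), and 9 or 10 were higher when each cell was left out. Several code for matrix proteins or matrix enzymes, the kind of gene that also chose the class, so this list is not independent of the split. Pmepa1, a target that damps the signal, was 3.68-fold higher (3.51 to 3.85; 1970 against 535.5 CPM), at 1026 to 3178 CPM in the 6 cells and in all but 1 of the epithelial cells. Cdkn1a was 2.18-fold higher (2.04 to 2.33), and 1.52-fold without Acinar182. Ccn2 was 3.19-fold higher, and 1.30-fold without Acinar6, which held 4149 CPM. Tgfbi, a secreted matrix protein, had 4 epithelial UMIs and a fold of 2273 (880 to 8388), which was 1135 without Acinar188. Lox, a collagen cross-linking enzyme, had 2 epithelial UMIs and 270 in the fibroblast-rich cells, a ratio of 3382 (927 to 28067), and was seen in all 6 of the latter. With the epithelial cells put at 3 counts its ratio was 2255, and 1289 without Acinar6. Itgb6, described above, is the gene of this list that was lower.

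Among 4 BMP responsive genes, 1 was higher, 1 lower and 2 neither (median log2 fold 0.23). Id3, an inhibitor of basic helix-loop-helix factors, was 47.8-fold higher (43.97 to 51.97; 1529 against 31.99 CPM), with each of the 6 cells at 412.2 CPM or more and the highest epithelial cell at 356.3. Its relative Id2 was 2.77-fold lower (2.05 to 3.84), and Id1 was at a ratio of 0.790.

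**Figure D5:**
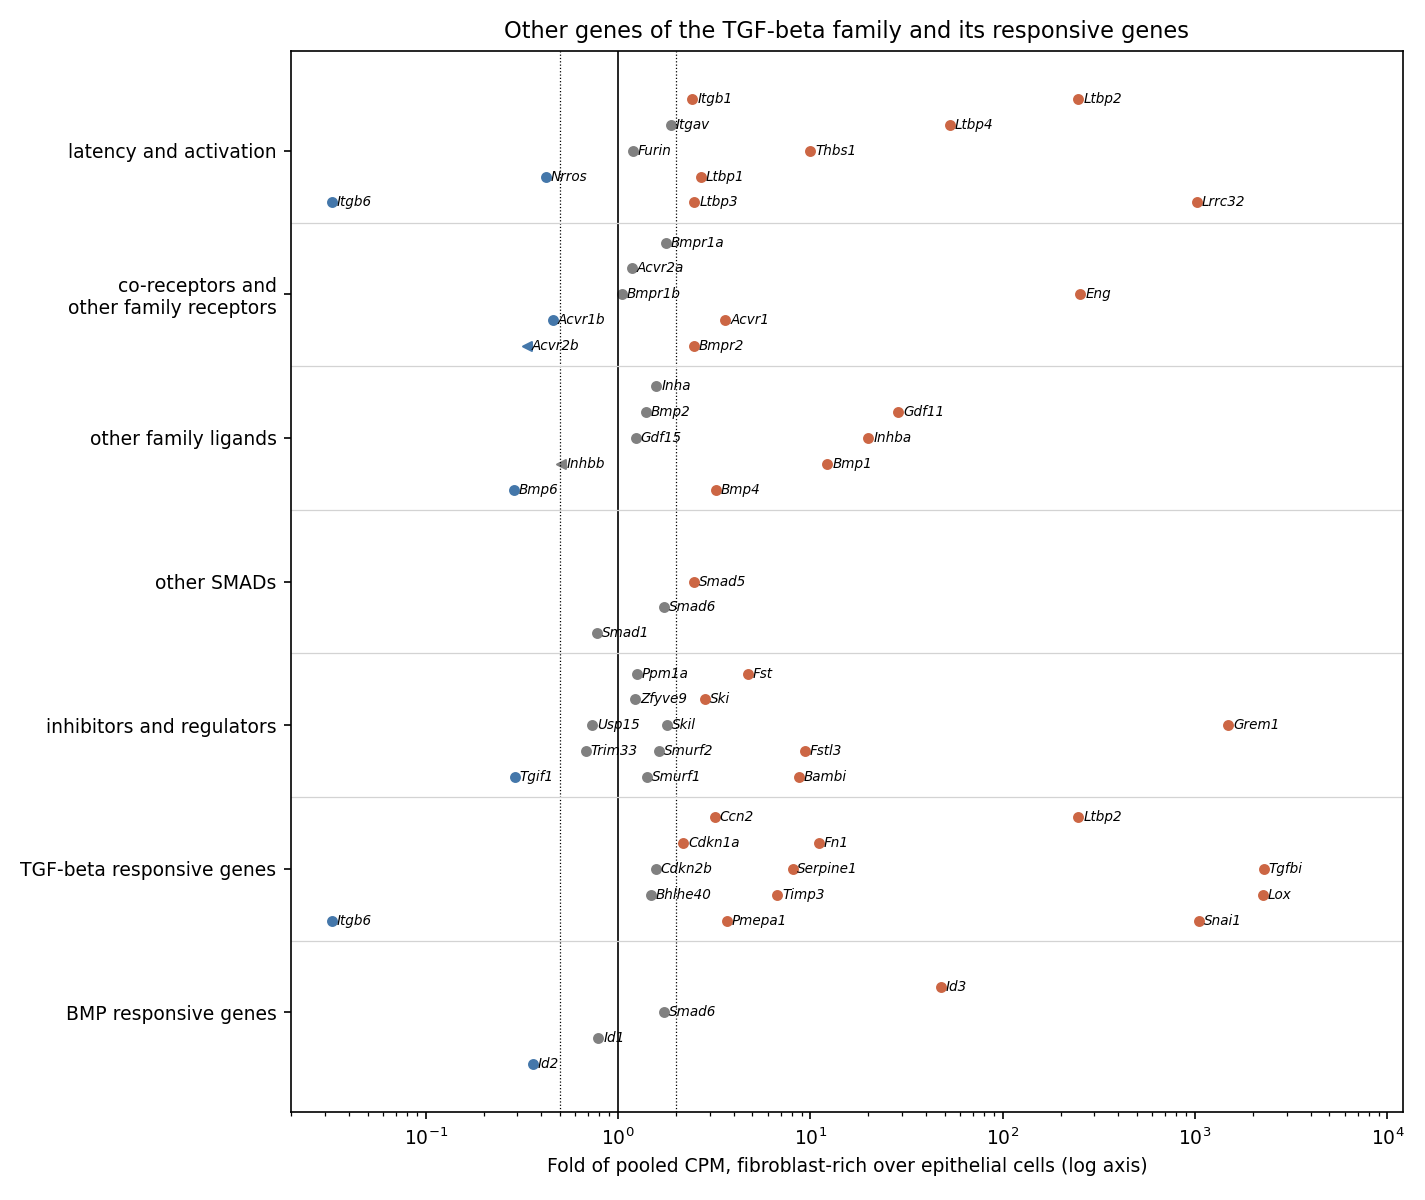
Fold of pooled CPM, fibroblast-rich over epithelial cells (horizontal axis, logarithmic; dotted lines at 0.5 and 2), for the genes of 7 pathway lists with at least 50 UMIs; orange points are at least 2-fold higher, blue points at least 2-fold lower, grey points neither, triangles have under 3 fibroblast-rich UMIs, and a class with under 3 UMIs is drawn at 3 counts, which holds for the epithelial cells of Lox and Grem1. Lrrc32, Grem1, Tgfbi, Lox and Snai1 lie farthest right, and Itgb6 farthest left.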

How the data were processed

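The authors deposited 2 tables of raw whole-number counts, UMI counts and read counts, with 179 cells in rows and 32100 Ensembl gene identifiers in columns. The tools STAR and featureCounts and the builds mm10 and GRCm38 were used, versions not stated, per the submitters' processing notes; UMI collapsing, strand use and cell selection are not given in the sources used here. On the opposite strand, Tgfb3 overlaps Ttll5 (1367 UMIs, no shared exon bases), Gm37804 (163 shared exon bases, 1 UMI) and Gm48008 (257 shared exon bases, 1 UMI). Tgfb2 overlaps Gm29491 (124 shared exon bases, 5 UMIs) and Gm26169 (no shared exon bases, 2 UMIs), and Smad4 overlaps AC132418.2 (no shared exon bases, 16 UMIs). Where exon bases are shared, reads of the 2 strands cannot be told apart unless the counting used strand.

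Symbols came from the annotation tables for 31985 identifiers (115 had none, 0.0932% of UMIs; 22 repeated a symbol and kept their identifier). All cells were used (173 epithelial and 6 fibroblast-rich, and 155 and 6 after thinning), and no doublet caller was run. The labels give 1 cell per sample, which does not show that a sample held RNA of only 1 cell. Whether Acinar188, with RNA of both lists, held more than 1 cell was not tested. CPM, ratios of pooled counts (a class under 3 UMIs put at 3), exact 95% Poisson and binomial intervals and thinning without replacement were computed in Python 3.11.15 with numpy 2.4.6, pandas 2.3.3 and scipy 1.17.1, and drawn with matplotlib 3.10.9. The fold step was run on simulated counts drawn from a shared gene profile without variation from cell to cell. That checks the calculation and not how the fold behaves with 6 cells that differ. The thinning step was compared with the exact expected share of cells. Exon lengths and positions are those of GRCm38.

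Named genes are the 9 members, the 3 highest by CPM and up to 2 with the largest fold in each direction in each pathway list, and the 3 most like genes at a rho of at least 0.4. The members, gene lists and the 1000 CPM level that defines fibroblast-rich cells were chosen with earlier results of these data known. Alternatives were read counts, equal weight per cell, the median cell, other totals and scalings, depth and gene filters, other class levels, title number ranges, other folds and thinning, and leaving out each fibroblast-rich cell.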

Additional observations from a re-analysis of the deposited data

Results flagged for a closer look

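Tgfb2 in Acinar182, at 568.2 CPM, stood apart from the other 5 fibroblast-rich cells, of which the next highest held 62.6 CPM. The gap to that cell was 0.89 of the whole range of the 6 cells, above Dixon's 95% critical value of 0.625. This was the only such value among the 9 genes examined. The critical value assumes independent draws from a normal distribution. Cells are not replicates, and Tgfb2 was skewed over the epithelial cells (median 8.44, highest 430.9 CPM). The gap is therefore a flag and not a test, and no chance rate can be given for it.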

How the results depend on the processing

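The count of 6 genes at least 2-fold higher was 4 to 6 over all alternatives, and 4 to 6 when each fibroblast-rich cell was left out; the gene lost most often was Tgfbr1, whose fold was 1.70 to 3.39. The count of 1 gene at least 2-fold lower was 0 to 1 when each cell was left out (0 without Acinar182, where Smad3 was at 0.503) and 0 at a fold of 3. Among title numbers up to 96, the gene at least 2-fold lower was Tgfb2 instead of Smad3. The fold of Tgfb2 changed direction in 2 of 18 alternatives, to 0.163 among title numbers up to 96, where the 3 fibroblast-rich cells held little of it, and to 0.77 without Acinar182; leaving out each cell gave 0.77 to 3.82. The folds of the other 8 genes kept their direction in 18 of 18 alternatives, except that Smad2, at 0.77 to 1.03, crossed 1. The fold was 16.6 to 30.7 for Tgfb1, 2.03 to 4.02 for Tgfb3, 2.22 to 4.12 for Tgfbr2, 0.291 to 0.585 for Smad3, 1.012 to 1.23 for Smad4 and 3.75 to 5.69 for Smad7. Putting the median fold of 4537 genes, 1.07, at a ratio of 1 lowered all folds by 0.10 on the log2 scale and reversed no direction. The median log2 fold over all 14997 genes tested, -0.09, had the opposite sign and was not the one used for this scaling. The count of 7 genes with a UMI in at least 50% of thinned epithelial cells was 4 when cells were thinned to 20000 UMIs, 9 at 80000 UMIs or without thinning, and 5 with at least 2 UMIs required; fewer molecules per cell lower it by construction. The count of 3 genes with a like gene was 4 on log2 values of unthinned CPM with 10 added. Leaving out each cell for the pathway lists, and the minimum of 50 epithelial UMIs for them, were added after seeing the data. No paired analysis was possible because there is 1 group and title numbers only name cells. With 6 fibroblast-rich cells, 56 to 472 UMIs per gene limit these folds.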
